A study of Rattus norvegicus with 86 samples.

Results

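*Vim*, *Igfbp2*, *Vtn*, *Cpxm1*, *Ccdc80* and *Dcn* are 6 of the 17250 genes measured by RNA-Seq in the prelimbic cortex (PL) of Heterogeneous Stock (HS) rats, an outbred population bred from several inbred founder strains. They were chosen on measured values: the first 5 are autosomal genes with a name that stood out when males were compared with females in these same libraries, and *Dcn* was added as a meningeal marker whose identifier was known. Levels in males and females are therefore described without a test, and the tests below concern rat batch, the correlation of the 6 genes with each other once sex and batch had been taken out, and the genes that followed *Dcn*. The rats were naïve, so no agent or treatment separated them, and each of 80 rats gave 1 library from PL tissue dissected on both sides of the brain. There were 40 males and 40 females. By the labels, batch 2 held 14 rats (3 females and 11 males), batch 3 held 23 (13 and 10), batch 4 held 26 (15 and 11), batch 5 held 1 female and batch 6 held 16 (8 and 8). What else a rat batch shared is not stated there. Such tissue holds neurons, glia and vessels, and in bulk fewer cells of a type and less RNA per cell cannot be told apart.

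Fibroblasts of the meninges and of the spaces around cortical vessels build the collagen-rich matrix that covers the brain and follows its vessels inwards, while mural and endothelial cells contribute to the basement membrane between blood and tissue. Decorin, the product of *Dcn*, is a small leucine-rich proteoglycan that binds collagen fibrils and transforming growth factor beta. Vitronectin (*Vtn*) is a secreted adhesion glycoprotein made in the brain by pericytes, and vimentin (*Vim*) is the intermediate filament protein of fibroblasts, endothelium and immature or reactive glia. *Igfbp2* encodes a secreted protein that binds insulin-like growth factors and is made by meninges, choroid plexus and astroglia. *Cpxm1* encodes a secreted member of the metallocarboxypeptidase family, and *Ccdc80* a secreted protein that associates with the matrix. Of the 6, only *Dcn* belonged to the list of fibroblast markers used below, and *Vim* is a cytoskeletal rather than a matrix gene, so the name of the set describes its members in part.

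The 4 genes that correlated most with each other were *Vim*, *Igfbp2*, *Vtn* and *Cpxm1*. Their promoters are shown to let them be compared, as the 250 bases before the RefSeq transcription start in assembly GRCr8, 5′ to 3′ on the strand of the gene. Capitals mark the motifs searched on both strands, which were the GC box GGGCGG, the TATA box TATAAA, the CCAAT box CCAAT, the AP-1 site TGANTCA and the E-box CACGTG. *Vim* lies on the plus strand with this window at chr17:81577011-81577260, *Igfbp2* on the plus strand at chr9:81864561-81864810, *Vtn* on the plus strand at chr10:63892532-63892781 and *Cpxm1* on the minus strand at chr3:138048444-138048693.
Vim: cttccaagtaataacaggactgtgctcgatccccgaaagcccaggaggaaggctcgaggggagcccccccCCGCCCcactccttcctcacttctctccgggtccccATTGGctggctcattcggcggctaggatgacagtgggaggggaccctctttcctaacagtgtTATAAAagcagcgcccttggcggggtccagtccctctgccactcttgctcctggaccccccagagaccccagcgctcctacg
Igfbp2: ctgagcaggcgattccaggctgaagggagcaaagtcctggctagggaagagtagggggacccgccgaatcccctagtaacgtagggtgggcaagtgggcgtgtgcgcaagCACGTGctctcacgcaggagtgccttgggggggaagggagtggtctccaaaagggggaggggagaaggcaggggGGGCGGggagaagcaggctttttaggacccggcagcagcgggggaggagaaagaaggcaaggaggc
Vtn: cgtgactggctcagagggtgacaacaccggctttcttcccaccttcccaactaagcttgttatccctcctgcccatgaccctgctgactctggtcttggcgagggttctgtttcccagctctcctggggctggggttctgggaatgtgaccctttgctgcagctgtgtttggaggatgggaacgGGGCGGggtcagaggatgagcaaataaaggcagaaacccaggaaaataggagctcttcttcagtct
Cpxm1: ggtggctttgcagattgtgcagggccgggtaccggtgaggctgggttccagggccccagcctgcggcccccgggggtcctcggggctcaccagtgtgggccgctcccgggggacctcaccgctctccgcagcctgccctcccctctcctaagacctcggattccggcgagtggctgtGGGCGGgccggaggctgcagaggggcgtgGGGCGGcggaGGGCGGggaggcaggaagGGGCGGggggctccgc
All 4 windows held the GC box, which 30.5% of 33469 rat promoters of the same length held, with 1 copy each in *Vim*, *Igfbp2* and *Vtn* and 4 copies in *Cpxm1*. The window of *Ccdc80* held none of the 5 motifs. *Vim* also held 1 TATA box (12.9% of promoters) and 1 CCAAT box (34%), and *Igfbp2* held 1 E-box (5.59%). None held the AP-1 site (6.34%). The GC content was 75.6% for *Cpxm1*, 64% for *Igfbp2*, 62.4% for *Vim*, 55.6% for *Vtn* and 50.4% for *Ccdc80*, against a median of 51.2% over all promoters. These matches describe the letters of the windows, and no binding was measured.

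All 6 genes were detected in every rat, and none was at 0 in any library. Values are log2 of the adjusted count plus 1, and since they are not per length, levels are compared between rats and not between genes. *Vim* ranged from 9.71 to 10.94 with a median of 10.21 (mean 10.25 ± 0.27, SD, n = 80). *Igfbp2* ranged from 8.06 to 10.14 with a median of 9.13 (9.12 ± 0.43). *Vtn* ranged from 8.23 to 9.96 with a median of 9.10 (9.10 ± 0.31). Of these, *Igfbp2* had the widest spread over rats. *Cpxm1* ranged from 6.89 to 8.03 with a median of 7.50 (7.47 ± 0.24). *Ccdc80* ranged from 6.81 to 7.86 with a median of 7.35 (7.37 ± 0.22). *Dcn* ranged from 6.93 to 9.06 with a median of 7.83 (7.87 ± 0.39). The medians correspond to between 162 adjusted counts for *Ccdc80* and 1182 for *Vim*.

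The male and female levels, on which 5 of the genes had been chosen, overlapped for all 6 genes. Median *Vim* was 10.40 in males (9.95 to 10.94) and 10.11 in females (9.71 to 10.59), median *Igfbp2* was 9.35 in males (8.58 to 10.14) and 8.85 in females (8.06 to 9.86), and median *Vtn* was 9.24 in males (8.80 to 9.70) and 8.98 in females (8.23 to 9.96). For *Vim* and *Igfbp2*, 36 of 40 males lay above the female median, but only 8 and 5 males lay above every female. Median *Cpxm1* was 7.56 in males (7.14 to 8.03) and 7.36 in females (6.89 to 7.82), and median *Ccdc80* was 7.46 in males (7.01 to 7.86) and 7.32 in females (6.81 to 7.65). For *Dcn* the medians were closest to each other relative to their spread, at 7.85 in males (7.21 to 9.06) and 7.71 in females (6.93 to 8.64), and 28 of 40 males lay above the female median.

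The difference between the sexes was not alike in every batch. In batches 3, 4 and 6 the male mean was higher for each of the 6 genes. For *Igfbp2* the mean log2 difference, male minus female, reached 0.52, 0.53 and 0.49 in these 3 batches, and 0.17 in batch 2. For *Vim* it was 0.33, 0.29 and 0.42 in batches 3, 4 and 6, and 0.03 in batch 2. *Dcn* had its widest difference in batch 6 (0.44) and one of 0.01 in batch 2. In batch 2, *Cpxm1* was lower in males by mean (7.47 ± 0.16, n = 11) than in females (7.55 ± 0.04, n = 3). Batch 2 held 3 females, and whether the sex difference varied with batch was not tested.

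**Figure D1:**
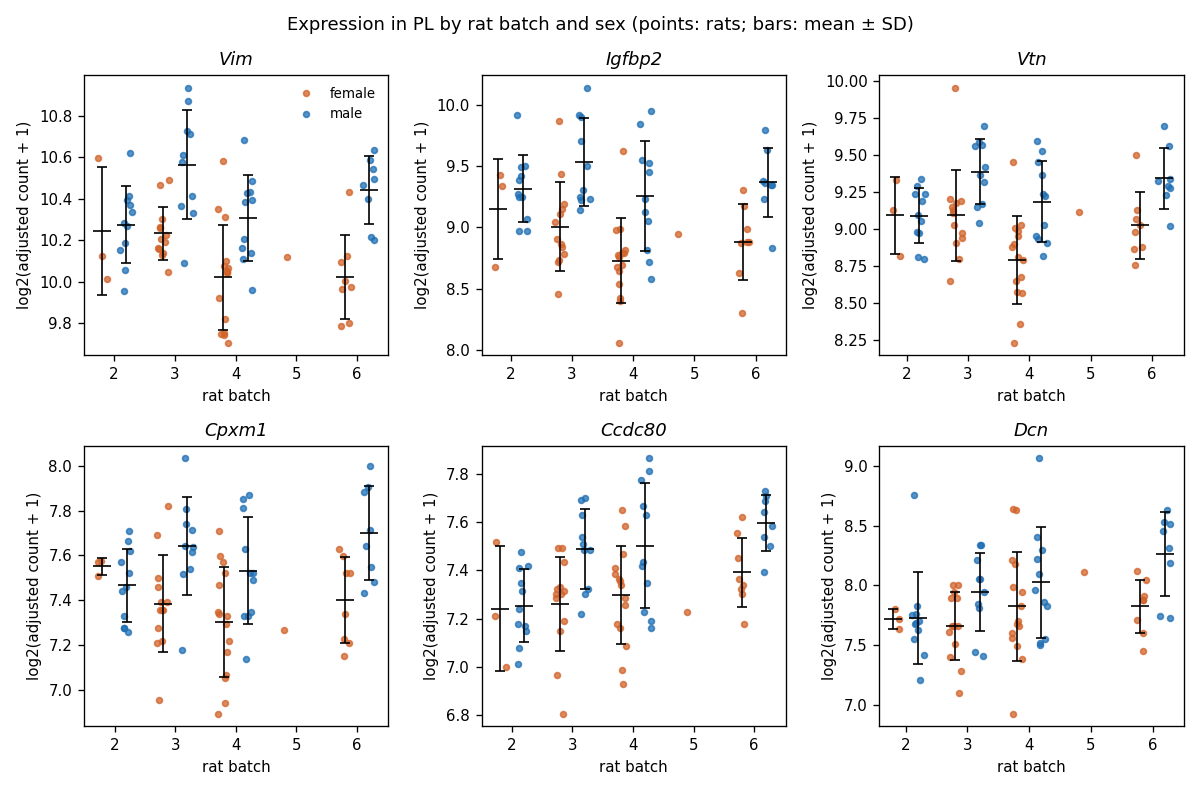
Expression of the 6 genes, as log2(adjusted count + 1), on the vertical axis against rat batch on the horizontal axis, with 1 point per rat (orange, females; blue, males) and black bars for the mean ± SD of each sex and batch with more than 1 rat. Males and females overlap in most panels, and in batch 2 their means nearly coincide for *Vtn*, *Ccdc80* and *Dcn*.

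The comparison of rat batches, a label that played no role in choosing the genes, gave the following order of levels. *Vim*, *Igfbp2* and *Vtn* were highest in batch 3 and lowest in batch 4 once sex was taken into account, whereas *Ccdc80* and *Dcn* were lowest in batch 2 and highest in batch 6, among the 4 batches with more than 1 rat. *Cpxm1* was lowest in batch 4 and highest in batch 6. Whether these orders differ between the genes was not tested. By the moderated F-test of limma, fitted with a sex term, 3 of the 6 genes differed between batches: *Ccdc80* (Benjamini-Hochberg adjusted p = 0.00579), *Vim* (0.00805) and *Vtn* (0.00882). *Dcn* (adjusted p = 0.0551), *Igfbp2* (0.140) and *Cpxm1* (0.326) did not pass. Differences between batches were common in PL, with 10249 of 17250 genes called (59.4%), so 3 of 6 is a share near that of all genes. Batch accounted for 20.1% of the variance left by sex in *Ccdc80*, 17.9% in *Vim*, 17.7% in *Vtn*, 12.5% in *Dcn*, 9.45% in *Igfbp2* and 6.84% in *Cpxm1*, beside a median of 17.2% over all genes. Without the single rat of batch 5, *Dcn* also passed (adjusted p = 0.0370), as it did among genes with a mean log2 value of at least 5 (0.0466), and without a sex term *Vim* (0.0557) and *Ccdc80* (0.0630) did not.

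*Vim* ran from 10.05 to 10.94 in batch 3 (median 10.30) and from 9.71 to 10.68 in batch 4 (median 10.10). The ranges overlapped, with batch 4 lower. In the contrast of batch 4 with batch 3, where 51.7% of all genes passed, 3 of the 6 genes did: *Vim* fell by 0.23 on the log2 scale (SE 0.06, adjusted p = 0.000748, limma), *Vtn* by 0.26 (SE 0.07, 0.00184) and *Igfbp2* by 0.28 (SE 0.10, 0.0132). *Vim* was also the only member called in the contrast of batch 6 with batch 3, at -0.16 (SE 0.07, adjusted p = 0.0393, with 49.9% of all genes called), a call lost under the rank-based inverse normal transformation (adjusted p = 0.0558) and without a sex term (0.138).

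*Ccdc80* ran from 7 to 7.52 in batch 2 (median 7.22) and from 7.18 to 7.73 in batch 6 (median 7.52). Most rats of batch 6 lay above the median of batch 2. It was higher in batch 6 than in batch 2 by 0.30 (SE 0.07, limma adjusted p = 0.000530) and higher in batch 4 than in batch 2 by 0.20 (SE 0.07, adjusted p = 0.0113). *Dcn* ran from 7.21 to 8.75 in batch 2 (median 7.69) and from 7.45 to 8.63 in batch 6 (median 7.98), a difference of 0.39 (SE 0.13, adjusted p = 0.0150). These were the only members called against batch 2, in contrasts where 38.3% (batch 6) and 37.2% (batch 4) of all genes passed. Without a sex term, the *Ccdc80* difference of batch 4 (adjusted p = 0.133) and the *Dcn* difference (0.0585) were not called, whereas *Igfbp2* was then called lower in batch 4 than in batch 2 (-0.33, adjusted p = 0.0470, against -0.16 and 0.307 with the sex term). None of the 6 genes passed between batches 3 and 2 or between batches 6 and 4, contrasts in which 5.70% and 6.23% of all genes passed. At an unadjusted p under 0.05, *Vim*, *Vtn* and *Ccdc80* were higher in batch 3 than in batch 2, and *Vtn* was higher in batch 6 than in batch 4. The share of all genes at this unadjusted threshold was not counted, so no excess among the members can be read from it.

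Most pairs of the 6 genes varied together from rat to rat once sex and batch had been taken out as additive terms. Residuals of each gene on sex and batch were correlated for the 15 pairs, with a two-sided permutation test in which 100000 permutations shuffled 1 gene within sex and batch. A sex difference that varied between batches stays in these residuals and enters r. All 15 values of Pearson's r were positive, with a median of 0.39, and 13 had an adjusted p under 0.05 over the 15 pairs. This adjustment covers the 15 pairs only, and how many other genes would pass the same test was not counted. In the slope test on *Dcn* below, 2271 of 17249 genes had an unadjusted p under 0.05 (limma). No member passed there after adjustment over all genes, so the called pairs with *Dcn* are not particular to this set. The rat of batch 5 is alone in its batch, so that its residual is 0 and it adds nothing to r.

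*Vim*, *Igfbp2*, *Vtn* and *Cpxm1* formed the closest set, a grouping made after the values were seen. The highest r was that of *Vim* with *Igfbp2*, at 0.66 (Spearman's rho 0.60). *Igfbp2* followed with *Cpxm1* (r = 0.58, rho 0.54) and with *Vtn* (r = 0.58, rho 0.51). The other pairs of these 4 were *Vim* with *Cpxm1* (r = 0.54, rho 0.51), *Vim* with *Vtn* (r = 0.53, rho 0.50) and *Vtn* with *Cpxm1* (r = 0.52, rho 0.50). Each of these 6 values of r had p = 1e-05, the smallest that 100000 permutations can give, and an adjusted p of 2.5e-05, and the adjusted p of rho was at most 8.57e-05. When the 2 rats farthest from the median of the first gene of the pair were left out, r stayed between 0.44 and 0.61.

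*Ccdc80* followed the same 4 genes at lower values, with r = 0.41 for *Vim* (permutation adjusted p = 0.00131, rho 0.48), 0.39 for *Vtn* (0.00186, rho 0.40), 0.36 for *Igfbp2* (0.00545, rho 0.36) and 0.30 for *Cpxm1* (0.0163, rho 0.33). *Dcn*, the fibroblast marker, had r = 0.34 with *Vim* (permutation adjusted p = 0.00793, rho 0.39), 0.31 with *Vtn* (0.00866, rho 0.44) and 0.29 with *Igfbp2* (0.0160, rho 0.29). The r of *Dcn* with *Cpxm1* was 0.24 and that with *Ccdc80* 0.23, each with a permutation adjusted p of 0.0571. By rank, *Dcn* passed with *Cpxm1* (rho 0.27, adjusted p = 0.0394) but not with *Ccdc80* (rho 0.20, 0.102). Whether the values with *Dcn* are lower than those among the other genes was not tested.

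**Figure D2:**
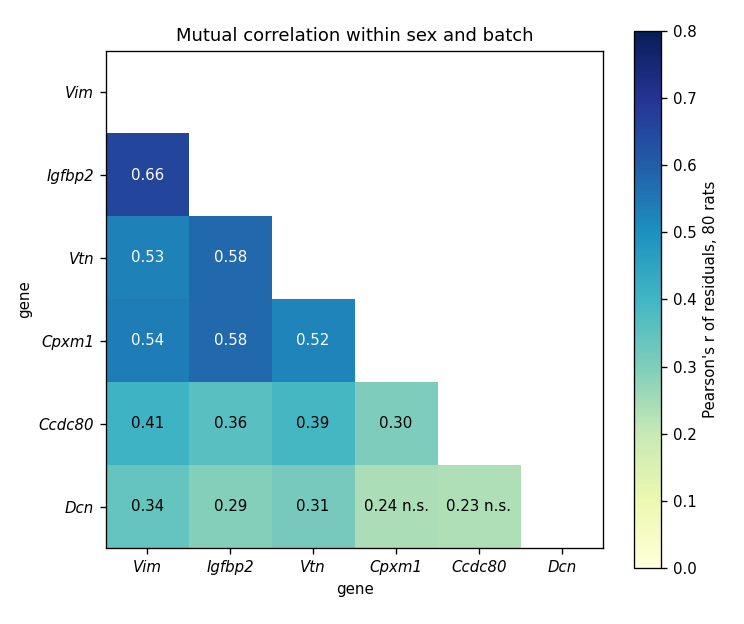
Pearson's r of residuals on sex and rat batch for the 15 pairs of genes over 80 rats, with the genes on both axes and r as colour and number; n.s. marks the 2 pairs with a permutation adjusted p of 0.0571. The values among *Vim*, *Igfbp2*, *Vtn* and *Cpxm1* lie between 0.52 and 0.66 and those with *Dcn* between 0.23 and 0.34.

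**Figure D3:**
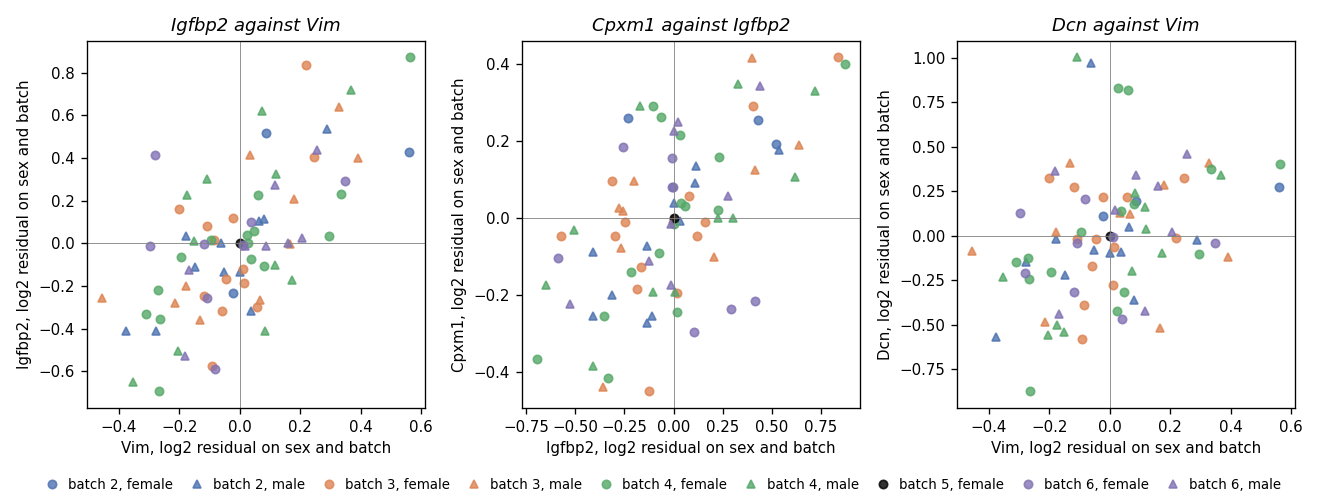
Residuals of the log2 values on sex and rat batch, 1 point per rat, for *Igfbp2* against *Vim* (left), *Cpxm1* against *Igfbp2* (middle) and *Dcn* against *Vim* (right), coloured by batch with circles for females and triangles for males. Both left panels rise (r = 0.66 and 0.58), and the right panel is more scattered (r = 0.34), with a few rats high in *Dcn* at average *Vim*.

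Set against all other genes, *Vim*, *Igfbp2*, *Vtn* and *Cpxm1* stood close to each other, and *Ccdc80* and *Dcn* did not rank as high. Among 17249 genes ranked by r with *Vtn*, *Igfbp2* came 3rd. *Igfbp2* came 5th for *Cpxm1* and 9th for *Vim*, and *Vim* came 10th for *Igfbp2*. The other ranks among these genes ran from 15th (*Vim* for *Cpxm1*) to 41st (*Vtn* for *Vim*). *Vim* came 15th for *Ccdc80* and 94th for *Dcn*, whereas *Dcn* came 356th for *Vim*, 687th for *Ccdc80*, 1325th for *Vtn*, 1515th for *Cpxm1* and 1586th for *Igfbp2*. *Ccdc80* came 140th for *Vim*, 444th for *Vtn*, 670th for *Cpxm1* and 677th for *Igfbp2*. In the ranking for *Ccdc80*, *Vtn* came 30th, *Igfbp2* 56th and *Cpxm1* 199th. In that for *Dcn*, *Vtn* came 172nd, *Igfbp2* 276th, *Cpxm1* 832nd and *Ccdc80* 925th. The number of genes with r above 0.5 was 55 for *Vim*, 44 for *Igfbp2*, 43 for *Vtn*, 22 for *Cpxm1*, 3 for *Ccdc80* and 0 for *Dcn*. Over all genes the median r was near 0 for each member, from -0.0024 for *Ccdc80* to 0.018 for *Cpxm1*. With a small equal share of genes left out at each end, r reached 0.391 for *Igfbp2*, 0.393 for *Vtn* and 0.327 for *Cpxm1*. Their r with *Ccdc80* and *Dcn* lay within these limits. The limits were 0.326 for *Vim*, 0.257 for *Ccdc80* and 0.270 for *Dcn*, and the called pairs of each lay above its limit. The share of all genes that would pass the permutation test was not counted.

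Within single batches the picture was uneven. For the 6 pairs among *Vim*, *Igfbp2*, *Vtn* and *Cpxm1* the median r ranged from 0.55 (batch 2) through 0.61 (batch 3) to 0.67 (batch 4), but was 0.18 in batch 6. In batch 6, *Vim* with *Igfbp2* kept r = 0.42, but *Igfbp2* with *Vtn* was 0.06 and *Vim* with *Vtn* 0.11. In that batch *Ccdc80* had higher values, 0.63 with *Cpxm1* and 0.53 with *Igfbp2*. Over all 15 pairs, 9 passed within batch 4 (n = 26, permutation test adjusted over the pairs), 4 within batch 3 (n = 23), and 0 within batch 2 (n = 14) and batch 6 (n = 16), where 13 values each were positive. With *Dcn* the median r was 0.42 in batch 4 and between 0.11 and 0.27 in the other batches. In males alone the median over the 15 pairs was 0.43 with 10 pairs called, and in females alone 0.35 with 6 called.

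Expression components shared by all genes were added as covariates. With 5 components as covariates the median over the 15 pairs was 0.35 with 12 pairs called by permutation, and with 20 components 0.26 with 9 called. Among *Vim*, *Igfbp2*, *Vtn* and *Cpxm1* the median went from 0.56 to 0.46 and 0.33, and with *Dcn* from 0.29 to 0.35 and 0.22. The pair of *Vtn* and *Dcn* went from r = 0.31 to 0.35 and 0.40, and that of *Cpxm1* and *Dcn* was called with 5 components (r = 0.25, permutation adjusted p = 0.0475). With 20 components, the pairs of *Dcn* with *Vim* (r = 0.22, permutation adjusted p = 0.0704) and with *Igfbp2* (r = 0.23, 0.0669) were no longer called, nor were those of *Cpxm1* with *Vtn* (r = 0.23, 0.0669) and with *Ccdc80* (r = 0.20, 0.0704). Beside these, the first expression component had r = 0.38 with *Igfbp2*, 0.34 with *Vtn* and 0.31 with *Vim*. It had 0.14 with *Cpxm1*, 0.11 with *Ccdc80* and -0.19 with *Dcn*. The sign of a component is arbitrary and was set to be positive for *Igfbp2*, so the other signs are relative to that. The second component had 0.32 with *Vtn*, 0.26 with *Igfbp2*, -0.23 with *Dcn* and between 0.02 and 0.18 with the others. The third had 0.30 with *Ccdc80*, 0.28 with *Dcn* and between -0.04 and 0.11 with the others. The log2 sum of adjusted counts had r = 0.34 with *Vtn*, 0.20 with *Igfbp2* and between -0.12 and 0.17 with the others. The part of these library measures in the correlations was not tested further.

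**Figure D4:**
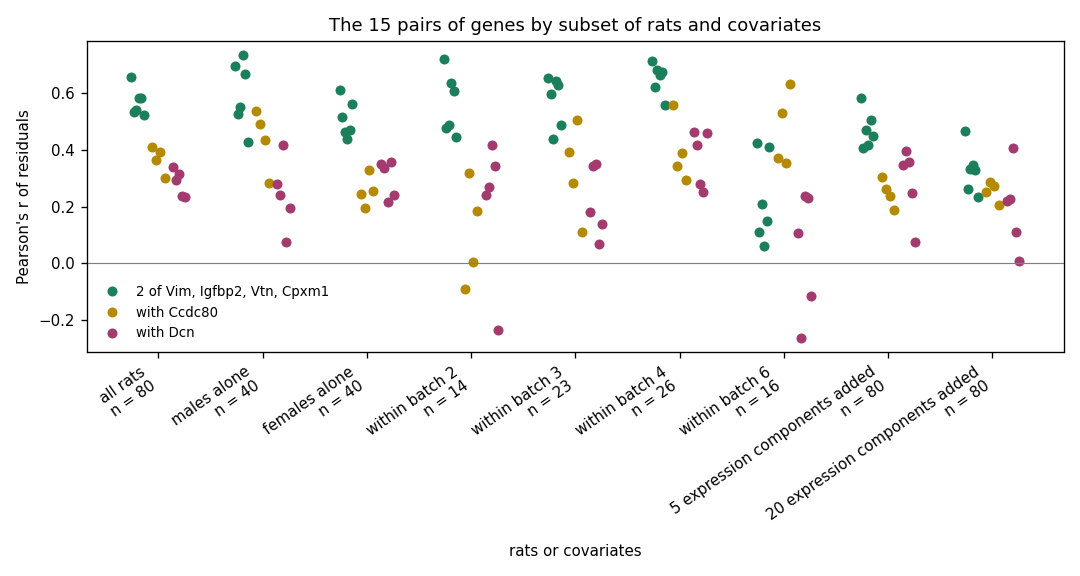
Pearson's r of residuals (vertical axis) for the 15 pairs of genes over all rats, in each sex, within 4 rat batches and with 5 or 20 expression components as covariates (horizontal axis, with the number of rats). Green points are the 6 pairs among *Vim*, *Igfbp2*, *Vtn* and *Cpxm1*, whose median is lowest within batch 6 (0.18), yellow points are pairs of these genes with *Ccdc80*, and purple points are pairs with *Dcn*.

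When every gene was regressed on *Dcn* with sex and batch in the model, the other 5 members all had positive slopes, but none passed over 17249 genes. The slope was 0.28 log2 units per log2 unit of *Dcn* for *Igfbp2* (SE 0.10, limma adjusted p = 0.219), 0.22 for *Vtn* (SE 0.08, 0.188), 0.20 for *Vim* (SE 0.06, 0.149), 0.14 for *Cpxm1* (SE 0.07, 0.360) and 0.12 for *Ccdc80* (SE 0.06, 0.377). Each had an unadjusted p under 0.05. Across all genes, 16 rose with *Dcn* (0.0928%) and 38 fell (0.220%), and 2271 had an unadjusted p under 0.05. These calls rested on the model. None was called with 5 or 20 expression components added or without batch 2 or batch 4, 1 rising and 0 falling genes were called without batch 3 and 0 and 5 without batch 6, while 1133 and 1301 were called with sex as the only covariate. Without batch 4 the slope of *Ccdc80* was 0.011, and with sex as the only covariate it was 0.18 and passed (adjusted p = 0.0332, limma).

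Of the 16 rising genes 2 had a name. *Acss3*, which encodes a mitochondrial acyl-CoA synthetase, rose by 0.39 per log2 unit of *Dcn* (SE 0.09, limma adjusted p = 0.0253, r = 0.47). *Dab2*, an endocytic adaptor found in macrophages and fibroblasts, rose by 0.33 (SE 0.08, adjusted p = 0.0380, r = 0.45). *Acss3* lies on chromosome 7, as *Dcn* does. Of the 38 falling genes 4 had a name. *Nrxn2*, a presynaptic adhesion molecule, fell by 0.18 (SE 0.04, adjusted p = 0.0234), and *Cnih2*, an auxiliary subunit of AMPA receptors, fell by 0.24 (SE 0.06, adjusted p = 0.0380). The ubiquitin ligase genes *Znrf1* and *Trim8* fell by 0.26 and 0.20 (adjusted p = 0.0380 each). Next in order but not called were *Igsf10* (slope 0.33, adjusted p = 0.0855) and *Fgl2* (0.41, 0.0855) with positive slopes and *Numbl* (-0.18, 0.0555) with a negative slope.

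Males and females did not differ detectably in how genes followed *Dcn*. limma called 0 of 17249 genes for a difference in slope (0%), with 1028 at an unadjusted p under 0.05. For the members, the male slope minus the female slope was between -0.12 (*Cpxm1*, SE 0.13) and 0.10 (*Vtn*, SE 0.15), and the adjusted p was at least 0.899.

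The named genes closest to each member by r, given here as a description over 80 rats without a test, overlapped. *Olfml3*, which encodes a secreted olfactomedin-like matrix protein, was among the 10 closest named genes of 5 members, with r = 0.60 for *Igfbp2*, 0.54 for *Cpxm1*, 0.52 for *Vtn*, 0.47 for *Vim* and 0.40 for *Ccdc80*. It was the only named gene of the 12 that were in the 100 closest genes of *Vim*, *Igfbp2*, *Vtn* and *Cpxm1* alike. *Serping1*, the inhibitor of the first complement component, was close to *Igfbp2* (0.59), *Vim* (0.53) and *Vtn* (0.51). *Col13a1*, a transmembrane collagen, was close to *Vim* (0.50), *Ccdc80* (0.43) and *Dcn* (0.36).

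The lists also held other genes. The closest to *Vim* included the vascular genes *Gja4* (0.56), a connexin of arterial endothelium, and *Vwf* (0.54), von Willebrand factor of endothelium, which was also among the 10 closest of *Cpxm1* (0.42). The closest to *Igfbp2* included the complement protease *C1r* (0.51) and the cytokine *Mif* (0.51), which was also close to *Vtn* (0.50). *Vtn* was further close to *Fcgrt* (0.53), the neonatal Fc receptor that recycles immunoglobulin, to *Mlc1* (0.51), a membrane protein of astrocyte endfeet, and to *Bcam* (0.49), a receptor for laminin.

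*Cpxm1* was closest, apart from members, to *Slc22a6* (0.58), an organic anion transporter of the meninges, and to the matrix glycoprotein gene *Tnc* (0.45) and the heparan sulfate polymerase gene *Ext2* (0.45). *Ccdc80* was close to *Aldh7a1* (0.44), the secreted protease gene *Adamts12* (0.40), *Olfml2a* (0.39) and *Pdpn* (0.38), podoplanin of meningeal and lymphatic cells. *Dcn* was close to *Igsf10* (0.40), *Fgl2* (0.40), *Atg4c* (0.40) and *Card6* (0.38) besides *Acss3* and *Dab2*. The lists of 10 further held *Nupr1* (0.52) for *Vim*, *Akr7a2* (0.50) and *Rnh1* (0.49) for *Igfbp2*, and *Epha8* (0.44) for *Cpxm1*. Among the 46 entries other than members in these lists of 10, 43 could be placed in RefSeq, and 4 lay on the chromosome of the member they followed: *Stk16* (with *Igfbp2*), *Ext2* and *Slc2a10* (with *Cpxm1*) and *Acss3*.

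At the other end were genes with negative r. For *Igfbp2* the 5 lowest were *Zmym4* (-0.51), the receptor phosphatase gene *Ptprd* (-0.50), the potassium-dependent sodium-calcium exchanger gene *Slc24a2* (-0.50) and the voltage-gated sodium channel genes *Scn1a* (-0.48) and *Scn2a* (-0.47). *Rasgrp1*, a nucleotide exchange factor for Ras, was among the 5 lowest for both *Vim* (-0.45) and *Cpxm1* (-0.42). *Vim* further had -0.46 with *Shtn1*, and *Cpxm1* had -0.42 with *Cadps2*, a regulator of vesicle release. For *Ccdc80* the lowest values were weaker, such as -0.34 with *Foxp2*. For *Dcn* the lowest was *Nrxn2* (-0.47). *Stmn2*, the only marker of neurons with an identifier, had positive values, 0.16 with *Vim*, 0.21 with *Igfbp2* and 0.20 with *Vtn*. All values are relative to the upper quartile to which each library was adjusted.

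The 100 closest genes of 2 members shared most for *Vim* and *Igfbp2* (42 of 100), then for *Vim* and *Ccdc80* (35), *Vim* and *Cpxm1* (32) and *Igfbp2* and *Cpxm1* (31). With *Dcn*, they shared 11 for *Ccdc80*, 10 each for *Vim* and *Igfbp2*, 3 for *Vtn* and 2 for *Cpxm1*. The lists are of equal size. They share the library, its scaling and the covariates, so the counts are a description.

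Markers of cell types could be looked up for few genes, since names were known for 3292 of the identifiers. These names came from the study's lists of genes whose expression was associated with a nearby variant (a cis-eQTL). Of 99 markers in 10 lists, 16 had an identifier, and 15 of these were not members. None rose or fell with *Dcn* in limma's test over all genes, beside 0.0928% and 0.220% of all genes. Of 16 markers of meningeal and perivascular fibroblasts, the 2 present besides *Dcn* were *Slc22a6* (7.35 ± 0.39, detected in every rat) and *Crabp2* (1.38 ± 1.44, down to 0). *Slc22a6* had r = 0.44 with *Vim*, 0.42 with *Igfbp2*, 0.39 with *Vtn*, 0.58 with *Cpxm1* and 0.17 with *Ccdc80*, but -0.06 with *Dcn*. *Crabp2* had 0.19, 0.09, -0.05, 0.04 and 0.09 with the same 5 genes in that order, and 0.09 with *Dcn*. The slope of *Slc22a6* on *Dcn* was -0.06 (SE 0.11, limma adjusted p = 0.840), so no relation between *Slc22a6* and *Dcn* was detected.

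Markers of other cells moved with part of the set. *Vwf*, of endothelium, had r = 0.54 with *Vim*, 0.42 with *Cpxm1* and 0.38 with *Vtn*, whereas the endothelial sialomucin gene *Emcn* had -0.10, -0.11 and 0.11, and *Egfl7* had 0.20, 0.13 and 0.26. The complement genes *C1qa* and *C1qc* of microglia had r between 0.36 and 0.48 with *Vim*, *Igfbp2*, *Vtn* and *Cpxm1*. By contrast, the microglial receptor gene *P2ry12* had 0.07 to 0.14 and the microglial marker *Itgam* 0.03 to 0.21 with the same genes. *Aqp1*, the water channel of choroid plexus epithelium, had 0.44 with both *Vim* and *Igfbp2*. *Hbb*, the beta globin of blood, had 0.26 with *Vim* and 0.28 with *Igfbp2*, *Aldh1l1* of astrocytes 0.41 with *Cpxm1*, and *Rgs5* of pericytes 0.29 with *Ccdc80* and 0.14 with *Vtn*. Markers of the same list thus differed in their r with the members. For *Dcn* every marker lay between -0.25 (*Olig2*, of the oligodendrocyte lineage) and 0.15 (*Rgs5*). The lists of mural cells, astrocytes, oligodendrocytes, ependyma, neurons and blood rest on 1 marker each and that of perivascular macrophages on none, and the part of these cells in the correlations of the members was not tested.

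**Figure D5:**
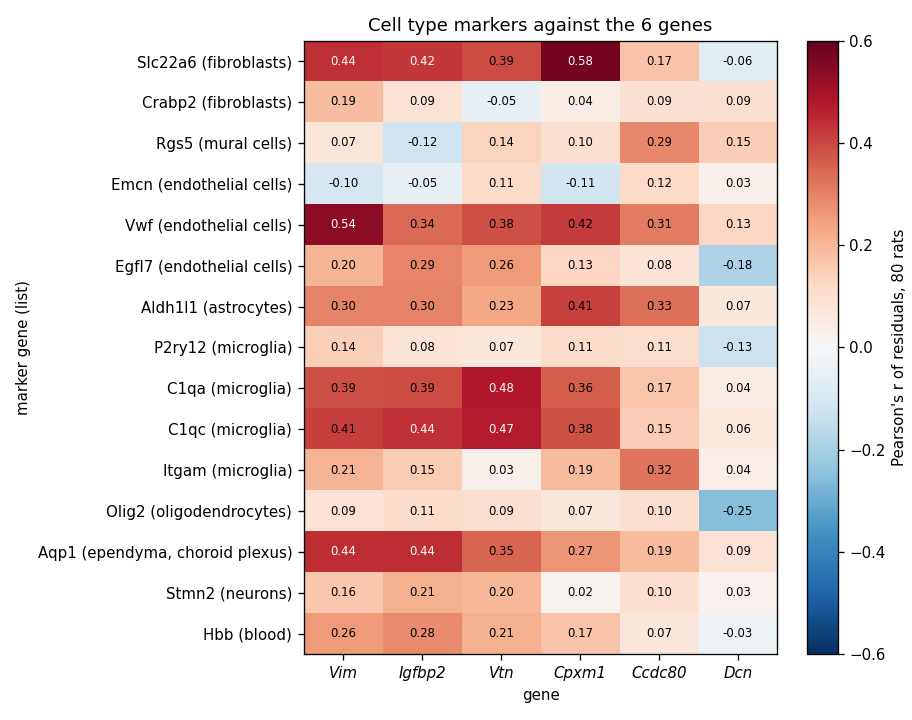
Pearson's r over 80 rats, on residuals on sex and rat batch, of the 15 cell type markers with an identifier (rows, with the list in brackets) with the 6 genes (columns), as colour and number. *Slc22a6*, *C1qa*, *C1qc*, *Vwf* and *Aqp1* have positive values with *Vim*, *Igfbp2*, *Vtn* and *Cpxm1* between 0.27 and 0.58 and values with *Dcn* between -0.06 and 0.13. *Crabp2*, *Emcn*, *P2ry12* and *Itgam*, from the same lists as some of these, lie between -0.11 and 0.21 with *Vim*, *Igfbp2*, *Vtn* and *Cpxm1*.

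Partners and relatives of the members were looked up in the same way. Of 63 genes in 7 lists, 8 had an identifier, and 0 rose and 0 fell with *Dcn*. Of these the insulin-like growth factor receptor gene *Igf1r* had r = -0.29 with *Igfbp2*, whose product binds its ligands, and -0.35 with *Vim*. The related binding protein gene *Igfbp4* had 0.01 with *Igfbp2*. For decorin, the ligand gene *Tgfb3* had r = 0.06 and the receptor gene *Met* -0.04 with *Dcn*, while *Tgfb3* had 0.32 with *Vim*. *Synm*, whose product assembles with vimentin, had -0.09 with *Vim*. Of the carboxypeptidases, *Cpd* had -0.07 and *Cpm* 0.02 with *Cpxm1*, and the basement membrane laminin gene *Lamb1* had -0.13 with *Vtn* and 0.26 with *Cpxm1*. No member of the lists of vitronectin partners and of small leucine-rich proteoglycans had an identifier.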

How the data were processed

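RNA-Seq of PL from 80 HS rats (40 male and 40 female) was analysed, with sex, batch and removal taken from the labels. Of 86 samples listed, 6 had been removed by the authors (3 outliers, 2 for genotype, 1 for low reads) and were left out. The authors trimmed reads with cutadapt, estimated gene counts with RSEM (build Rnor_6.0 in the submitters' processing notes), adjusted them to a common upper quartile with DESeq2, and deposited them as log2 of the adjusted count plus 1. The adjusted counts were whole numbers in 100% of values within 0.1%, summing to 16957388 to 20613396 per library, a total set by the adjustment and not the depth. No count test was run, since these are not raw counts. Genes at 0 made up 2.02% to 5.66% of each library.

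Linear models were fitted in R 4.3.3 by the lmFit and eBayes functions (with trend) of limma 3.58.1, with Benjamini-Hochberg adjustment over all genes and a threshold of 0.05. Tests were checked on simulated data. Correlations used residuals on sex and batch and 100000 permutations (Python 3.11.15, numpy 2.4.6, scipy 1.17.1, pandas 2.3.3). Rats are the replicates. The parts of the study's supplementary tables that were read for names list genes with a cis-eQTL, and paired 3292 identifiers with names (19.1%). Named genes are thus not a random part of all genes. The genes named are the 6 members, the 10 named genes with the highest and 5 with the lowest r with each member at a mean log2 value of at least 5, and genes of 17 fixed lists (153 symbols, 24 with an identifier). Not every gene under this rule is reported here. The members and lists were chosen with earlier results of these data known. Alternatives changed the pseudocount (10), scaling, transformation, covariates, low-value filter and rats, and those for contrasts between 2 batches were added after the data were seen. Promoters and chromosomes of named genes came from RefSeq tables for GRCr8, in which 5 of the members matched a promoter entry.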

Additional observations from a re-analysis of the deposited data

Results flagged for a closer look

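For each of the 6 genes, the highest and lowest rat were checked for a gap to the others in the 3 groups of one sex and batch that held 4 to 10 rats. Of these 18 sets of values, 0 had a rat standing apart by Dixon's criterion, which flags about 1 in 20 sets by chance. Groups with fewer than 4 or more than 10 rats were not checked. Among the 11 males of batch 2, the highest *Dcn* value was 8.75 and the next 7.83. Leaving out the 2 rats farthest in the first gene of a pair did not address this, since *Dcn* was always the second gene.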

How the results depend on the processing

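The counts of genes differing between rat batches, in the F-test and in the 6 contrasts, stayed within 1.5 times under every alternative run, and 0 genes differed in slope between the sexes throughout. The genes rising and falling with *Dcn* numbered 16 and 38, and 10 and 7 after the inverse normal transformation, 0 and 0 with 5 or 20 expression components and without batch 2 or batch 4, 1 and 0 without batch 3, 0 and 5 without batch 6, and 1133 and 1301 with sex as the only covariate, and the cause was not tested. Fewer rats entered the fits without a batch. Of the 15 pairs of members 13 were called, but 6 in females alone, 4 within batch 3 and 0 within batch 2 and batch 6, each with fewer rats, and the median r was 0.23 within batch 6. Values that changed sign were *Vim* with *Ccdc80* (-0.091) and *Ccdc80* with *Dcn* (-0.24) within batch 2, *Igfbp2* with *Dcn* (-0.26) and *Ccdc80* with *Dcn* (-0.11) within batch 6, *Igfbp2* between batches 3 and 2 (-0.046) and *Vim* between batches 6 and 2 (-0.036) without a sex term, and the sex difference in the slope of *Vim* (0.070) after the inverse normal transformation. The male minus female differences of *Cpxm1* (-0.085) and *Vtn* (-0.0013) were also below 0 within batch 2. No other value of a member changed sign. Of 225 values for single pairs, 56 lost and 7 gained significance. The male minus female differences of the members moved by less than 1 SD in all 18 values recomputed over the 80 rats. The differences within single batches are not among these 18. The labels give males and females no shared replicate numbers, so no paired fit was made. The depth of each library is not in the values used here and could not be set beside them. Names were known for 19.1% of identifiers, and the closest gene to *Igfbp2* (ENSRNOG00000008947, r = 0.80) and to *Vim* (ENSRNOG00000010362, r = 0.74) had none.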
